A study of Mus musculus with 6 samples.

Results

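The genes described are 10 genes of inflammasome signalling and lytic cell death, taken as a list of gene names: Nlrp3, Aim2, Pycard, Casp1, Casp4, Casp8, Gsdmd, Ripk3, Mlkl and Zbp1. All 10 were found among the 55335 genes of the table, and 7 of them reached a mean of at least 1 FPKM (mapped fragments per kilobase of transcript and per 1e+06 fragments), the level from which a gene was tested. Pycard, Ripk3 and Zbp1 stayed below it in all libraries.

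Expression was measured by RNA sequencing in primary microglia grown from whole brains of newborn C57BL/6 mice in mixed culture and shaken off on day 14. They were kept for 24 h in direct co-culture with neutrophils, which had been drawn by magnetic sorting from contused spinal cords at 3 dpi (days post-injury), and were then recovered by flow sorting as cells without the neutrophil protein Ly6G. The arms differed in the neutrophil donor, which was either Cd177 WT or Cd177 KO, while the microglia carried the WT genotype in every library. There were 3 libraries per arm and 6 in all. The labels do not say whether replicates were separate cultures or donors, so the p-values measure only the spread between these libraries. Microglia kept without neutrophils were not analysed here, so each difference is one between the neutrophil genotypes and not an effect of adding neutrophils. Below, WT and KO name the genotype of the neutrophils.

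Inflammasomes are cytosolic assemblies in which a sensor such as NLRP3 or AIM2 recruits the adaptor ASC, the product of Pycard, and through it the protease caspase-1. Caspase-1, or caspase-11 in the noncanonical route, then cuts gasdermin D, whose released fragment forms pores in the plasma membrane and ends in the lytic death called pyroptosis. Necroptosis is a second lytic route, in which RIPK3, engaged by RIPK1 or by the nucleic acid sensor ZBP1, phosphorylates MLKL, and caspase-8 restrains it. In microglia and other myeloid cells this machinery is known for its control of interleukin-1 release, and several of its steps depend on transcription during a preceding priming signal while others act only on existing protein.

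Summed FPKM lay between 314084.9 and 315632.4 in WT libraries and between 323588.4 and 326868 in KO libraries, and mitochondrially encoded genes took 11.1% to 11.32% and 14.31% to 14.62% of it. Libraries correlated more closely within an arm (Pearson's r of 0.988 to 0.989 across genes) than between arms (0.956 to 0.959). Of 11 microglial marker genes, 9 lay under 1 FPKM in all libraries, and Sall1, Fcrls and C1qa were listed at 0, whereas all 10 markers shared by macrophages and microglia passed the filter. The label of microglia therefore rested on shared myeloid genes in these files. All 14 neutrophil markers lay under 1 FPKM, and S100a9, Ly6g, Mpo, Elane, Ltf and Retnlg were listed at 0 in all 6 libraries. Summed over the 14 genes, WT libraries held 2.04 to 2.30 FPKM and KO libraries 0.813 to 1.27 FPKM. Cd177 itself was at 0.477, 0.113 and 0.151 FPKM in the WT and at 0.109, 0.0217 and 0.0845 in the KO arm, where 3 fragments would give 0.071 and 0.0695 FPKM. As the RNA came from the sorted microglia, and the lowest WT and highest KO values nearly met, Cd177 gave no firm check of the neutrophil genotype.

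To place the genes on their start sites, 300 bp promoter windows (250 bases before to 50 after the annotated start) were read from RefSeq on GRCm38.p6, where 8 of the 10 genes had 10 windows. Gsdmd and Zbp1 had no window there. Each window was searched on both strands for the NF-κB consensus, for the core of the interferon-stimulated response element (GAAANNGAAA) and for the core of the gamma-activated site (TTCNNNGAA). The NF-κB consensus was present in a window of Nlrp3 and in both windows of Casp4, and in none of the windows of Aim2, Pycard, Casp1, Casp8, Ripk3 and Mlkl. Neither of the interferon cores was present in any of the 10 windows. Over all 32851 promoter windows of the table, 4.51% held the NF-κB consensus, 3.44% the first core and 8.30% the second. These matches describe letters in a short window, and no binding was measured. The windows of Casp4 (chr9:5308599-5308898, plus strand) and Nlrp3 (chr11:59541319-59541618, plus strand) that held a match are shown because both genes changed in the comparison, with that of Casp1 (chr9:5298267-5298566, plus strand), the neighbour of Casp4 that was not called. Capitals mark the NF-κB match, which in Casp4 is a pair of overlapping matches that begin 93 and 92 bases before the start. In Nlrp3 the match begins 186 bases before the start.
Casp4: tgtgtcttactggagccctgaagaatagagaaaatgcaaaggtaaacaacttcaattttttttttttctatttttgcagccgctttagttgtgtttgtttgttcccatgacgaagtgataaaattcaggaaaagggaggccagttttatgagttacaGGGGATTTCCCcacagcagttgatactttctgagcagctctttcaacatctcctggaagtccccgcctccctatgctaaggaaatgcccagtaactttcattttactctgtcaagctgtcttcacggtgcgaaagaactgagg
Nlrp3: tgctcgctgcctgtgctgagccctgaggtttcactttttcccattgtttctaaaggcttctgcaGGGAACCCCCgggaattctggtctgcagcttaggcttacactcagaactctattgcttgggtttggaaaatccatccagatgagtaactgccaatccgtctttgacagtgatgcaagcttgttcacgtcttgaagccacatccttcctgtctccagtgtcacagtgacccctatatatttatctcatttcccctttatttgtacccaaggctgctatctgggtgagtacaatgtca
Casp1: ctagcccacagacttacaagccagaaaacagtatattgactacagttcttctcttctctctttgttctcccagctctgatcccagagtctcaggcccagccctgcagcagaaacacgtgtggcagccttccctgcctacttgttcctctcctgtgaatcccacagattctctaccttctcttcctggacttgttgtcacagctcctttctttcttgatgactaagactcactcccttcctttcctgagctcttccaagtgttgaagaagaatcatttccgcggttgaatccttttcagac

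The comparison asked which of these genes in microglia differed when the neutrophils lacked Cd177. With KO neutrophils, Casp4 was 3.63-fold, Nlrp3 2.35-fold and Mlkl 1.44-fold lower than with WT neutrophils. Casp1, Casp8, Gsdmd and Aim2 did not pass the test, and Pycard, Ripk3 and Zbp1 were at or near 0 in both arms. The changes thus fell on 1 inflammasome sensor, 1 inflammatory caspase and the executioner of necroptosis. Expression was compared with limma on log2(FPKM + 1), with Benjamini-Hochberg adjustment over the 11395 genes tested. On this scale, which understates the change of low genes, 3 of the 7 tested genes were lower and 0 higher at an adjusted p under 0.05, where 43.3% of all genes tested were called in either direction, 18.8% lower and 24.5% higher. So the number of calls was near that of all genes, and the 3 calls were all in the lower direction. The median log2 change of the 7 genes was -0.10, beside 0.02 over all genes tested. In 5 of the 7 genes the arms did not overlap, against 55.8% of all genes. Of these, 3 were lower with KO neutrophils, where 24.6% of all genes were lower without overlap, and 2 (Aim2 and Gsdmd) were higher, where 31.3% were. The separation of Aim2 and Gsdmd was lost when libraries were scaled to a common sum. Casp4 and Nlrp3 also passed the threshold of the study's methods, a fold above 2 together with unadjusted p under 0.05, as did 2.57% of all genes. It was applied here to the limma change of FPKM + 1 and not to the DESeq2 test of the study. Low genes that changed more than 2-fold in FPKM can therefore miss it. In such bulk samples, fewer cells of a type and less RNA per cell cannot be told apart.

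**Figure D1:**
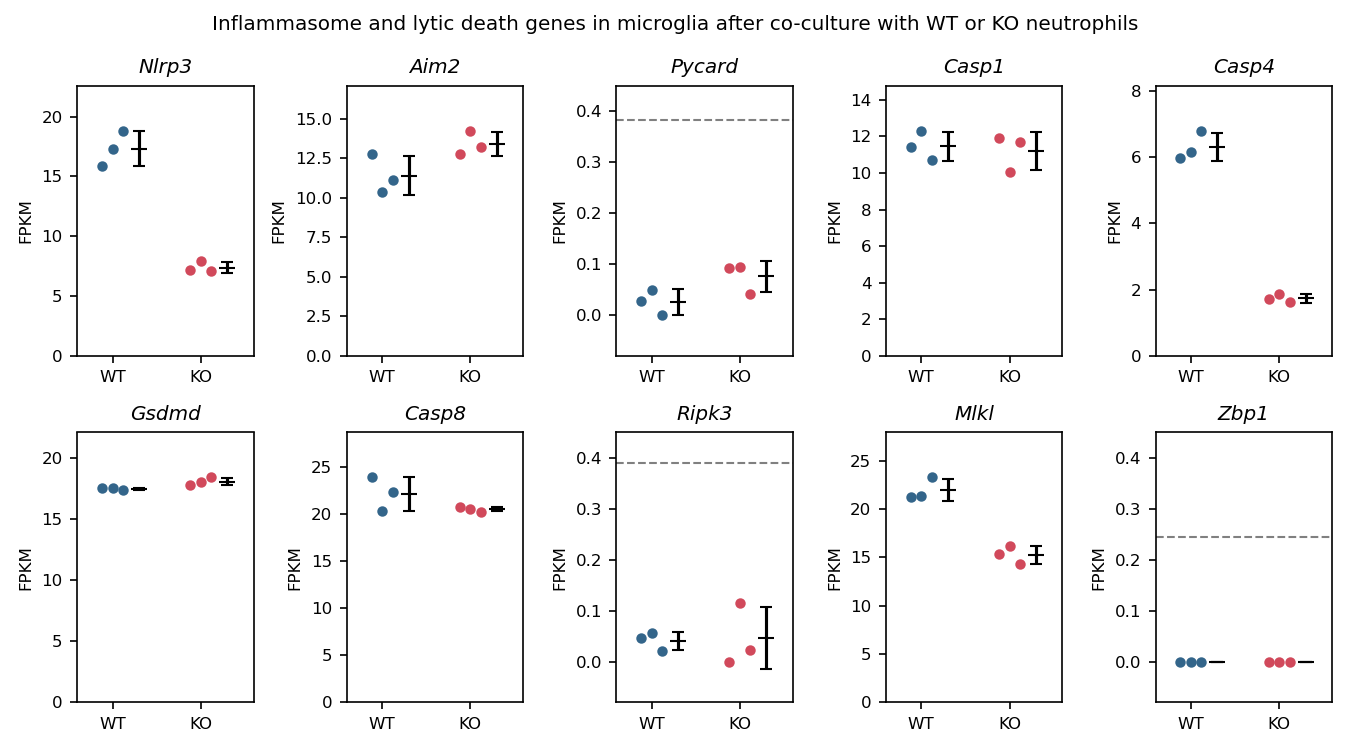
FPKM of the 10 genes in each library, with 1 dot per library (blue, WT neutrophils; red, KO neutrophils) and the mean ± SD beside them in black; each panel has its own axis, and the dashed line in the panels of Pycard, Ripk3 and Zbp1 is the level of 3 fragments on the shortest coding transcript. The KO dots of Nlrp3, Casp4 and Mlkl all lie below the WT dots, those of Casp1 and Casp8 overlap the WT dots, and every dot of the 3 low genes lies under its line.

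The plot of FPKM by library shows these values side by side. The first sensor, Nlrp3 (chr11:59541568-59566956), responds to potassium efflux and other signs of membrane damage and is known to need induction before it can act. Its level was 15.9, 17.3 and 18.8 FPKM with WT neutrophils and 7.14, 7.92 and 7.08 FPKM with KO neutrophils. The lowest WT library thus lay well above the highest KO library. Compared with 17.3 ± 1.45 FPKM in the WT arm, the KO mean was 7.38 ± 0.471 FPKM (SD, n = 3 each), and the log2 change was -1.13 (limma, SE 0.0707, adjusted p = 5.58e-05). Among all tested genes, Nlrp3 stood at percentile 74.5 of mean FPKM with WT neutrophils and at percentile 48.0 with KO neutrophils.

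Aim2 (chr1:173350879-173466040), which senses double-stranded DNA in the cytosol, did not follow Nlrp3. It was at 12.7, 10.4 and 11.1 FPKM with WT neutrophils and at 12.8, 14.2 and 13.2 FPKM with KO neutrophils. The KO values were all higher, but the closest pair of libraries from the 2 arms was nearly level. With libraries scaled to a common sum the arms overlapped (exact two-sided permutation p = 0.3). The means were 11.4 ± 1.22 and 13.4 ± 0.751 FPKM (SD, n = 3 each), and the log2 change of 0.22 (95% interval 0.03 to 0.41) did not pass (limma adjusted p = 0.0649). Without WT replicate 1 the log2 change was 0.295 and passed (limma adjusted p = 0.0164), so the call on Aim2 rested on that library.

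Pycard (chr7:127989708-127993867), the gene of the adaptor ASC that links both sensors to caspase-1, was almost undetected. Its level was 0.0272, 0.0504 and 0 FPKM with WT neutrophils and 0.0928, 0.0943 and 0.041 FPKM with KO neutrophils. All 6 values were a small part of the 0.383 FPKM that 3 fragments on the shortest coding transcript would give, and they lay on both sides of the 0.0411 to 0.0507 FPKM that 3 fragments on the longest would give. No difference was detectable at this depth (exact two-sided permutation test on FPKM, p = 0.2, the smallest possible being 0.1). An annotated gene on the opposite strand, Gm45205, overlaps its exons, so even these few fragments cannot be assigned with certainty.

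Among the caspases, Casp1 (chr9:5298517-5307265) encodes the protease that matures interleukin-1β and interleukin-18. It was at 11.4, 12.3 and 10.7 FPKM with WT neutrophils and at 11.9, 10.03 and 11.7 FPKM with KO neutrophils. The arms overlapped throughout. The means were 11.5 ± 0.799 and 11.2 ± 1.03 FPKM (SD, n = 3 each), with a log2 change of -0.03 and a 95% interval from -0.22 to 0.16 (limma adjusted p = 0.772).

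Casp4 (chr9:5308828-5336783), the next gene on the same strand, encodes caspase-11, which binds bacterial lipopolysaccharide directly and drives the noncanonical route. It had 5.97, 6.15 and 6.79 FPKM with WT neutrophils and 1.71, 1.88 and 1.62 FPKM with KO neutrophils. No KO library came near the WT range. Compared with 6.30 ± 0.429 FPKM in the WT arm, the KO mean was 1.74 ± 0.132 FPKM (SD, n = 3 each), and the log2 change was -1.41 (limma, SE 0.0665, adjusted p = 1.59e-05). With a pseudocount of 0.1 the log2 change was -1.80, closer to the fold of the mean FPKM. Its place among all tested genes went from percentile 42.9 to percentile 9.67.

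Casp1 and Casp4 were also compared with each other within each library. The log2 ratio of Casp4 to Casp1 (each FPKM + 1) was -0.83, -0.89 and -0.59 in the WT libraries, against -2.25, -1.94 and -2.28 in the KO libraries. The KO ratios were all lower, and the mean ratio differed by -1.38 on the log2 scale, or by -1.77 with 0.1 added in place of 1. The exact two-sided permutation test gave p = 0.1, the smallest that 3 against 3 libraries allow, and 0.167 after adjustment over the 5 ratios computed.

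Casp8 (chr1:58795374-58847503) encodes the caspase that starts apoptosis from death receptors and holds RIPK3 in check. It was at 23.9, 20.3 and 22.3 FPKM with WT neutrophils and at 20.7, 20.6 and 20.2 FPKM with KO neutrophils, where WT replicate 2 lay within the KO range. The log2 change was -0.10 (95% interval -0.24 to 0.04, limma adjusted p = 0.198). Without WT replicate 2 it was -0.16 and passed (limma adjusted p = 0.0294), and without WT replicate 1 it was -0.0499 (limma adjusted p = 0.457), so both the call and the size depended on single WT libraries.

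Gsdmd (chr15:75862327-75867408), whose product is the pore-forming substrate of caspase-1 and caspase-11, varied little between libraries. It was at 17.5, 17.5 and 17.4 FPKM with WT neutrophils and at 17.8, 18.0 and 18.4 FPKM with KO neutrophils. The arms did not overlap, but the log2 change was only 0.04 (95% interval -0.02 to 0.11, limma adjusted p = 0.242), and its sign turned when libraries were scaled to a common sum (log2 change -0.00226). The log2 ratio of Gsdmd to Casp1 was 0.57 ± 0.0877 with WT neutrophils and 0.65 ± 0.124 with KO neutrophils (SD, n = 3 each, exact two-sided permutation p = 0.5).

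**Figure D2:**
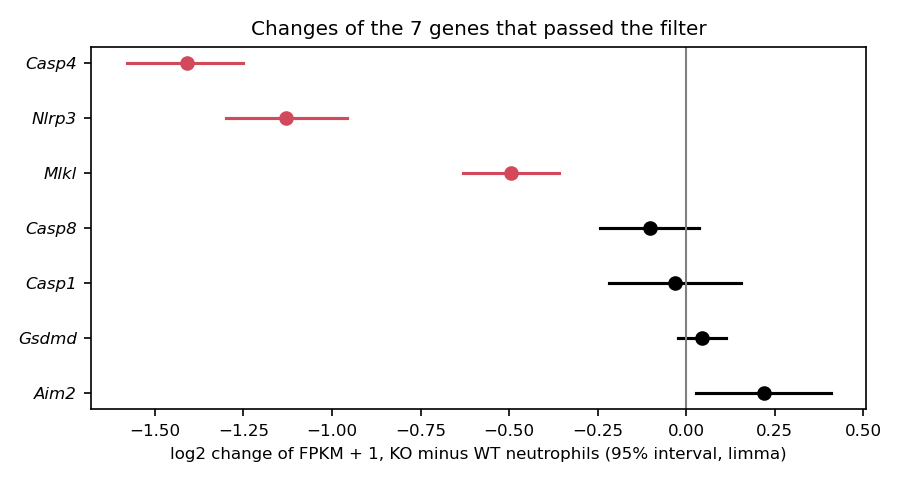
Log2 change of FPKM + 1 (KO minus WT neutrophils, horizontal axis) of the 7 genes that passed the filter, as points with 95% intervals from limma; red marks an adjusted p under 0.05 and black the others. Casp4, Nlrp3 and Mlkl lie to the left of 0 at -1.41, -1.13 and -0.50, and the other 4 lie between -0.10 and 0.22.

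The plot of log2 changes sets the 7 tested genes on 1 axis. In the necroptotic route, Mlkl (chr8:111311797-111338177) encodes the pseudokinase that disrupts the plasma membrane. It was at 21.3, 21.3 and 23.3 FPKM with WT neutrophils and at 15.4, 16.2 and 14.3 FPKM with KO neutrophils. Each KO library lay below each WT library. Compared with 22.0 ± 1.14 FPKM in the WT arm, the KO mean was 15.3 ± 0.933 FPKM (SD, n = 3 each), and the log2 change was -0.50 (limma, SE 0.0562, adjusted p = 0.000773).

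Ripk3 (chr14:55784995-55788865), the kinase directly upstream of MLKL, was close to absent from these files. Its level was 0.0456, 0.0555 and 0.0204 FPKM with WT neutrophils and 0, 0.116 and 0.0227 FPKM with KO neutrophils. The value of 3 fragments was 0.391 FPKM for its shortest coding transcript and 0.0794 to 0.0981 for its longest, and KO replicate 2 alone exceeded the latter. No difference was detectable (exact two-sided permutation test on FPKM, p = 0.9).

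Zbp1 (chr2:173206612-173218923), a sensor of left-handed double-stranded nucleic acid that can engage RIPK3 without RIPK1, was listed at 0 FPKM in all 6 libraries. At this depth 3 fragments on its shortest coding transcript would have given 0.245 FPKM in the KO arm. Because floors of this kind cover counting error only, a listed 0 does not show that the transcript was absent. With 1 added to each FPKM, ratios that use Ripk3 or Pycard as a partner therefore followed the other gene. The difference was -0.50 for Mlkl to Ripk3 and -1.20 for Nlrp3 to Pycard on the log2 scale. With 0.1 added instead, the differences were -0.505 and -1.71. The latter went beyond the -1.22 of Nlrp3 alone, so it also held the values of Pycard near 0.

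FPKM is a level per length, so the 10 genes can be ranked within an arm. With WT neutrophils the order of the mean levels was Casp8 (22.1), Mlkl (22.0), Gsdmd (17.5), Nlrp3 (17.3), Casp1 (11.5), Aim2 (11.4) and Casp4 (6.30). Casp8 and Mlkl overlapped, as did Gsdmd and Nlrp3, and Casp1 and Aim2, so these neighbours did not differ beyond their spread. With KO neutrophils the order was Casp8 (20.5), Gsdmd (18.1), Mlkl (15.3), Aim2 (13.4), Casp1 (11.2), Nlrp3 (7.38) and Casp4 (1.74), and no neighbours among these 7 overlapped. Nlrp3 thus stood above Casp1 and Aim2 in the WT arm and below both in the KO arm, and Casp4 came last among the tested genes in both.

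**Figure D3:**
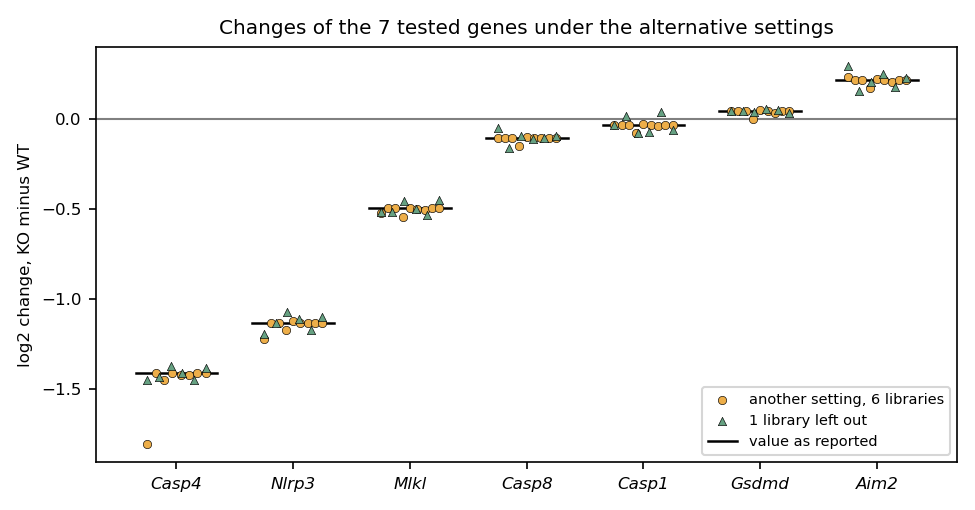
Log2 change (KO minus WT neutrophils, vertical axis) of the 7 tested genes as reported (black line), under other settings with all 6 libraries (circles) and with 1 library left out (triangles). Casp4, Nlrp3 and Mlkl stay below 0 in each of these, with Casp4 between -1.80 and -1.37, while Casp1 and Gsdmd lie on both sides of 0.

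The plot of alternative settings shows how far each change moved with the processing. Nlrp3 lay between -1.22 and -1.07 and Mlkl between -0.54 and -0.45 on the log2 scale over the alternatives, and both were called in each of them. Casp4 was called in each alternative that tested it, and a stricter filter at a mean of 5 FPKM left it out.

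To see the surroundings of the 10 genes, 74 other genes of the same pathways were taken from 5 lists, of which 59 were tested. In all, 17 were lower, 13 were higher and 29 did not pass. The shares were 28.8% lower, 22.0% higher and 50.8% called, beside 18.8%, 24.5% and 43.3% of all genes tested, and the counts of each list below stand against the same shares of all genes. Exons of Nek7, Txnip, Dpp8, Hmgb1 and Ripk1 overlap other annotated genes, so fragments counted there may be shared.

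Among other inflammasome sensors and activators, 12 of 19 were tested, 1 was lower, 3 were higher and 8 did not pass (median log2 change 0.11). Naip2, one of the NAIP proteins that bring bacterial ligands to NLRC4, was at 15.8, 15.5 and 15.5 FPKM with WT and at 10.2, 10.9 and 11.9 FPKM with KO neutrophils (log2 change -0.47, limma adjusted p = 0.000973). Its close relative Naip6 went the other way, at 2.57, 2.71 and 2.47 against 3.75, 3.09 and 3.63 FPKM (log2 change 0.32, limma adjusted p = 0.014). Naip genes are near-identical copies among which reads may be split, so both values are uncertain. Nek7, the kinase that binds NLRP3 during its activation, was higher by 0.21 on the log2 scale (14.9, 14.1 and 14.0 against 17.3, 16.4 and 16.5 FPKM, limma adjusted p = 0.00667). Txnip, a redox protein reported to bind NLRP3, was at 62.2, 64.2 and 54.5 against 80.7, 75.7 and 73.7 FPKM (log2 change 0.34, limma adjusted p = 0.00748).

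Of 12 genes that restrain inflammasomes, 10 were tested, with 2 lower, 4 higher and 4 not passing (median log2 change 0.05). Serpinb1a, an inhibitor of neutrophil serine proteases and of inflammatory caspases, rose from 13.7, 15.4 and 14.7 FPKM with WT to 62.5, 62.2 and 61.5 FPKM with KO neutrophils (log2 change 2.02, limma adjusted p = 6.5e-07). Tnfaip3, which encodes the ubiquitin-editing enzyme A20, fell 4.26-fold, from 7.90, 7.59 and 7.87 to 1.67, 1.95 and 1.86 FPKM (limma adjusted p = 4.63e-06). Trim30a, reported as a negative regulator of NLRP3, was at 2.73, 3.02 and 2.83 against 0.986, 1.15 and 0.944 FPKM (log2 change -0.93, limma adjusted p = 0.00012). Dpp8, a protease that keeps NLRP1 inactive, was higher by 0.26 on the log2 scale (limma adjusted p = 0.00463). Genes of restraint thus moved in both directions.

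Of 12 further executioners and products of pyroptosis, 8 were tested, with 2 lower, 3 higher and 3 not passing (median log2 change -0.05). The 2 that fell were cytokines. Il1a, an alarmin, was at 57.1, 54.9 and 59.4 FPKM with WT and at 2.59, 2.33 and 2.42 FPKM with KO neutrophils (log2 change -4.08, limma adjusted p = 4.98e-08). Il1b, the main substrate of caspase-1, was at 4.90, 4.45 and 4.82 against 0.0845, 0.0551 and 0.116 FPKM. As its KO mean lay under the 0.139 FPKM of 3 fragments per library, the level was lower by at least 34.0-fold (limma adjusted p = 1.76e-06). Genes on the opposite strand overlap exons of both, Gm14023 at Il1a and Il1bos at Il1b. Il18, the other cytokine that caspase-1 matures, was at 2.99, 2.72 and 2.77 against 3.33, 1.77 and 2.69 FPKM and did not pass (95% interval of the log2 change -0.50 to 0.27, limma adjusted p = 0.602). Hmgb1, a nuclear protein that lysed cells release, was higher by 0.29 on the log2 scale (limma adjusted p = 0.0107). At the level of transcripts, the substrate Il1b and the protease Casp1 thus parted, as the first was lower with KO neutrophils and the second was not called.

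**Figure D4:**
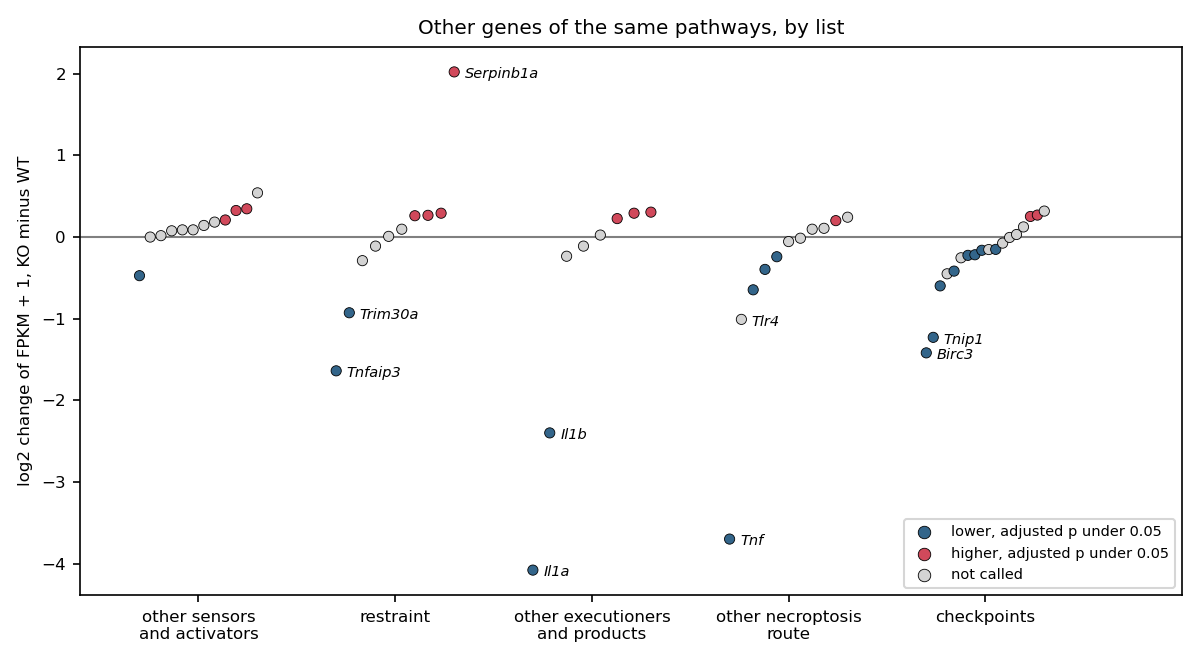
Log2 change of FPKM + 1 (KO minus WT neutrophils, vertical axis) of the 59 tested genes of the 5 other lists, with 1 point per gene, sorted within its list (blue, lower; red, higher; grey, not called at an adjusted p under 0.05). Tnf and Il1a lie lowest and Serpinb1a highest, Tlr4 is uncalled in spite of its size, and most other points lie between -0.5 and 0.5.

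Of 13 further genes of the necroptosis route, mostly ligands, receptors and signalling proteins around RIPK1 and RIPK3, 11 were tested, with 4 lower, 1 higher and 6 not passing (median log2 change -0.06). Tnf, the ligand that starts necroptosis through TNFR1, was at 167, 165 and 163 FPKM with WT and at 10.9, 12.2 and 12.3 FPKM with KO neutrophils, a 14.0-fold difference (log2 change -3.70, limma adjusted p = 6.05e-08). Its receptor gene Tnfrsf1a went the other way (15.6, 15.6 and 14.2 against 17.6, 18.0 and 17.0 FPKM, log2 change 0.20, limma adjusted p = 0.0152), a call that was lost without KO replicate 2 (limma adjusted p = 0.0513). Cflar, whose product cFLIP tunes caspase-8, was at 19.3, 19.1 and 20.0 against 12.6, 11.8 and 11.8 FPKM (log2 change -0.65, limma adjusted p = 4.72e-05). Ripk1, the kinase above RIPK3, was at 9.50, 9.67 and 9.29 against 10.4, 10.1 and 10.04 FPKM and did not pass (log2 change 0.09, limma adjusted p = 0.0738). Ifnar2, a chain of the type I interferon receptor, was lower by 0.40 (log2 change -0.40, limma adjusted p = 0.000648), though Gm21970 shares its exons. As the plot of the 5 lists shows, the ligand Tnf had the largest change of this list. Genes that act beneath its receptor were divided, as Ripk1 and Casp8, which is outside that plot, were not called, while Cflar was lower.

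All 18 checkpoint genes, most of which act between survival and death beneath the TNF receptor, were tested. Of these, 8 were lower (44.4%, beside 18.8% of all genes), 2 were higher (11.1%, beside 24.5%) and 8 did not pass (median log2 change -0.16). Birc3, the ubiquitin ligase cIAP2, was at 15.4, 13.8 and 15.1 against 5.24, 4.41 and 5.01 FPKM (log2 change -1.42, limma adjusted p = 1.79e-05). Tnip1, which encodes a partner of A20, was at 47.2, 45.5 and 49.0 against 18.6, 20.5 and 19.6 FPKM (log2 change -1.23, limma adjusted p = 5.83e-06). Traf2, the adaptor that carries the cIAP proteins, was lower by a smaller step (6.89, 6.61 and 6.73 against 4.53, 5.06 and 4.80 FPKM, log2 change -0.42, limma adjusted p = 0.00091). Adar, the RNA editing enzyme that keeps self RNA from ZBP1, was at 13.7, 13.8 and 14.0 against 10.6, 8.17 and 7.83 FPKM (log2 change -0.60, limma adjusted p = 0.0044), with Chrnb2 overlapping on the opposite strand. These 4 were named for their small p among the called genes. The 2 called genes that went the other way were Rbck1, which encodes the HOIL-1 subunit of the linear ubiquitin ligase (17.6, 18.3 and 16.1 against 21.4, 21.02 and 20.6 FPKM, log2 change 0.27, limma adjusted p = 0.00601), and Tab1, a partner of the kinase TAK1 (5.20, 5.54 and 5.74 against 6.36, 7.35 and 6.47 FPKM, log2 change 0.25, limma adjusted p = 0.0223).

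Along with these genes, the summed level of the 14 neutrophil markers (2.04 to 2.30 against 0.813 to 1.27 FPKM), that of the 10 shared macrophage markers (2170 to 2210 against 2580 to 2630 FPKM) and the mitochondrial share differed between the arms. The sum of the shared markers was carried by abundant genes such as Ctsd (means of 817 and 1120 FPKM), and its members did not move as one, with 6 higher, 2 lower and 2 not called. The 2 lower ones were Adgre1, which encodes F4/80 (101 against 39.3 FPKM, 2.58-fold, limma adjusted p = 1.74e-06), and Fcer1g (191 against 157 FPKM, limma adjusted p = 0.00152). Of the microglial markers, Cx3cr1 was 2.40-fold lower (2.74 against 1.14 FPKM, limma adjusted p = 0.00148). Scaled without mitochondrial genes, the log2 changes of Casp4, Nlrp3 and Mlkl were -1.41, -1.12 and -0.49, and all 3 were called. The part of the marker genes in these changes was not tested.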

How the data were processed

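RNA sequencing of microglia from 2 co-culture arms gave 6 libraries, grouped by their titles. Per gene and library, FPKM values were deposited by the authors in 1 table, without pooled columns, and no column was left out. The submitters' processing notes name fastp 0.17.1, HISAT2 2.1.0, DESeq2 1.18.1 and R 3.4.3, without roles. The quantification program, genome build and annotation are not given in the sources used here, and the labels and the methods name different library kits and sequencers. The authors' own test was DESeq2. Symbols and positions came from GENCODE M21 (GRCm38), in which 55154 of 55335 identifiers (99.67%) were found, and promoters came from RefSeq (GRCm38.p6).

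The values were analysed as log2(FPKM + 1) with limma 3.58.1 (lmFit and eBayes with trend, R 4.3.3) as the difference of the KO from the WT neutrophil arm, with no covariate. Testing was limited to genes averaging at least 1 FPKM, whose p-values were adjusted by Benjamini-Hochberg, and genes were called at an adjusted p under 0.05. Single genes and ratios were compared with exact two-sided permutation tests (scipy 1.17.1), in which 3 against 3 libraries cannot give less than 0.1. The fit was tested on simulated data. Scaling by FPKM lets a few abundant genes shift all others, so other scalings were tried, besides other pseudocounts and filters, a fit without trend, a replicate block and the omission of each library.

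Depth is not given with FPKM. From the most common step between low values, 1 fragment was worth 0.0520 to 0.0642 FPKM at 1 kb, or 15.6 to 19.2 in units of 1e+06 fragments per library. Only 31.2% to 33.4% of low values were whole fragments within 0.05, against 10% by chance, so reads were not recovered and no count test was run. The detection floor of 3 fragments rests on this step and covers counting error only.

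The 10 genes and the lists were chosen with earlier results of these data known. Named genes were the 10 genes, Il1b, Il18, Tnf and Ripk1, up to 4 called genes of smallest p from each list, and Cd177, apart from 1 gene that is not reported here. Tlr4, Rbck1, Tab1, the marker genes with values and the genes named under other observations, as well as markers at 0, were named after their values were seen. Markers of astrocytes, oligodendrocytes and neurons (12 genes) and of lymphocytes (6 genes) were under 1 FPKM in all libraries.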

Additional observations from a re-analysis of the deposited data

How the results depend on the processing

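Of 429 log2 changes of 29 tested genes recomputed under the alternatives, 422 kept their direction and their side of the threshold. The exact tests could not pass the threshold under any alternative, so they bear only on direction. Depth limits Pycard, Ripk3 and Zbp1, for which differences under the floor of 3 fragments were not detectable. Calls over all genes numbered 4930, with 3763 to 4931 over all alternatives and 4082 to 4223 with 1 library left out. Calls among the 10 genes numbered 3, with 2 at a filter of 5 FPKM and 3 to 4 with 1 library left out. The replicate block, which treats equal replicate numbers as pairs, gave 4212 calls over all genes and 3 among the 10, and it changed no call of a member. The deviations of equally numbered libraries correlated at -0.075, -0.052 and -0.005. Such values show no strong shared signal, and whether equal numbers mark a shared culture or donor remains unknown. With a filter at a mean of 5 FPKM, Casp4 was not tested, 1 gene of the 10 passed the threshold of the study's methods in place of 2, and 3 further executioners and products of pyroptosis were called in place of 5. Without a filter, 7 other sensors and activators were called in place of 4. In both cases the number of genes tested changed. The log2 change of Gsdmd turned to -0.00226 on the scale of a common sum, and its difference of mean FPKM to -0.028. The log2 change of Casp1 turned to 0.0167 without WT replicate 2 and to 0.0407 without KO replicate 2, where its difference of mean FPKM was 0.165 and 0.339 (range with 1 library left out -0.632 to 0.339). That of Ripk3 turned to -0.00445 without WT replicate 3 and to -0.0292 without KO replicate 2 (range -0.0292 to 0.0286). The log2 change of Il18 turned to 0.0636 without KO replicate 2 (range -0.259 to 0.0636). The causes were not tested. No count test was run, because reads could not be recovered.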

Other observations

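Some genes of the same pathways held 1 or 2 libraries that stood away from the others of their arm, and did not pass the test. Tlr4, the receptor for lipopolysaccharide upstream of the adaptor Ticam1, was at 11.8, 3.18 and 11.9 FPKM with WT neutrophils and at 3.14, 3.09 and 3.99 FPKM with KO neutrophils (limma adjusted p = 0.11). WT replicate 2 lay within the KO range. Ninj1, whose product completes membrane rupture after gasdermin pores have formed, was at 22.9, 43.2 and 39.7 FPKM with WT and at 22.7, 24.4 and 42.6 FPKM with KO neutrophils (limma adjusted p = 0.575), so each arm held high and low libraries. Ikbkg, which encodes NEMO, the non-catalytic subunit of a kinase complex, was at 6.81, 6.39 and 3.92 against 3.69, 3.58 and 4.17 FPKM (limma adjusted p = 0.0837). P2rx7, the ATP-gated channel that opens the route to NLRP3, was at 4.06, 4.45 and 3.69 against 5.13, 8.92 and 5.54 FPKM (limma adjusted p = 0.056), with all KO libraries higher.

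Among other sensors and activators below the filter, the arms did not overlap in 3 of 7 genes, where 55.8% of all tested genes did not overlap, 2 with higher and 1 with lower values in the KO libraries. That share covers only genes that passed the filter. Of the 7 genes, 2 were at 0 in all libraries and could not separate, so the shares are not alike. Nlrp1b, a sensor of the NLRP1 family, was at 0.115, 0.164 and 0.118 FPKM with WT and at 0.389, 0.532 and 0.479 FPKM with KO neutrophils. Nlrp10 was at 0.464, 0.393 and 0.275 against 0.844, 1.03 and 0.785 FPKM. Gbp2, a guanylate-binding protein, was at 0.499, 0.243 and 0.492 against 0, 0.164 and 0.0875 FPKM, and a microRNA gene overlaps its exons on the opposite strand. For each of these 3 genes the exact two-sided permutation test gave p = 0.1, the smallest possible. All of these genes were picked after their values were seen.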
